A study of Mus musculus with 216 samples.

Results

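Domains of H3K9me3 that lie at the promoters of protein-coding genes are described here, with the class the authors gave each one for how fast its mark decayed after the enzymes that write it were removed. A domain counted as a promoter domain when it overlapped, by 1 bp or more, a window reaching 1 kb to each side of the start of a transcript annotated as protein-coding (GENCODE vM21). On chromosomes 1 to 7, 9, 10 and 12 to 19, 968 of 34389 domains did so, or 2.81%, and they covered 4.83 of the 137 Mb in domains. The whole table holds 43039 domains. The decay classes are fast, intermediate, slow and residual. The class was not used to choose the domains.

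The study followed mouse embryonic stem cells of the line dTKO. Their genotype is given as Suv39h1fl/fl ; Suv39h2-/- ; Setdb1fl/fl, so that Suv39h2 is missing in all samples, those at 0 h included. Auxin (100 µg/ml) and dTAG13 (0.5 µM), small molecules that direct tagged proteins to degradation, were added and cells were taken at 0, 1, 3, 12, 24 and 48 h. The labels do not say which protein carries which tag, or how many clones the line came from. H3K9me3 (antibody Abcam ab8898) and HP1β were measured by ChIP-seq from 20 µg of chromatin, to which 1.5 µg from Drosophila had been added, and each had its own input, giving 4 kinds of library, 3 biological replicates and 9 sequencing runs per kind and time (216 in all). The table gives 1 class per domain over all of these runs, with no column of samples, so there is no spread between cultures and no read depth behind a class, and no test was made. Intervals below are Wilson 95% intervals and cover counting error only. Of 8 stem cell marker genes on these chromosomes, 1 had a promoter domain (Esrrb), and the table holds no levels that would check the cell type.

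H3K9me3 is the histone mark of constitutive heterochromatin. In embryonic stem cells SETDB1 writes it mainly at retroviral repeats and at selected genes, to which zinc finger proteins that bind KAP1 (Trim28), or other DNA-binding repressors, bring it, while SUV39H1 and SUV39H2 write it over larger repeats and spread it. HP1 proteins read the mark. Many housekeeping and developmental genes start in CpG islands, stretches rich in the CpG dinucleotide that are mostly free of DNA methylation and of H3K9me3, whereas a small set of genes for germ cells, imprinted genes and zinc finger gene clusters are known to carry the mark.

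Promoters of 11 of the genes named below are shown first, as examples. Each belongs to the most covered start of its gene, which need not be its main one. The sequences run from 250 bases before the transcript start to the 30th base from it on, 5′ to 3′ along the gene, and were read from GRCm38.p6. The first set are germline genes with CACGTG, the E-box bound by MGA and MAX, in capitals: Brdt (chr5:107330909-107331188, plus strand), Mei1 (chr15:82069746-82070025, plus) and Mov10l1 (chr15:88982659-88982938, plus), whose domains were intermediate, and Tdrd9 (chr12:111971309-111971588, plus), whose domain was slow.
Brdt: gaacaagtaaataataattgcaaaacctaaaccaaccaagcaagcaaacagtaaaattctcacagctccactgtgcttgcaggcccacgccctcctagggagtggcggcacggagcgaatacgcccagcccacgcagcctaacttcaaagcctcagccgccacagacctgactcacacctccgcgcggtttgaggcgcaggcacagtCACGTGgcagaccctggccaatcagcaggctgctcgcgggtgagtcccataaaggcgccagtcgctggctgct
Mei1: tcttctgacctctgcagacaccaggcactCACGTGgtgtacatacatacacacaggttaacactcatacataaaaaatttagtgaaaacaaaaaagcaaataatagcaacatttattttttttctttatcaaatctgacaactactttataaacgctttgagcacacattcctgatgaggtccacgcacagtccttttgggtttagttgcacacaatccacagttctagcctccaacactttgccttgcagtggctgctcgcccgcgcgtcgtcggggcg
Mov10l1: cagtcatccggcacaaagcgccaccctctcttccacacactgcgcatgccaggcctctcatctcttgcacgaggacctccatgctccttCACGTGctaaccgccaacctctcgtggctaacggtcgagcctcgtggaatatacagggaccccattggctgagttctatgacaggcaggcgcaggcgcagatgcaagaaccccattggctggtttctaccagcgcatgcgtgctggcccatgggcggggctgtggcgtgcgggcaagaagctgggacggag
Tdrd9: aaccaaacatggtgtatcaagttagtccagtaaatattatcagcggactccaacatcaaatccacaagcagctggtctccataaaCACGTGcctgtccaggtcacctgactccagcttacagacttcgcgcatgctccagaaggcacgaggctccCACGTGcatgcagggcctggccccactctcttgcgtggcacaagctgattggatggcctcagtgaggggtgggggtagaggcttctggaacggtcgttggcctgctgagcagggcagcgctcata

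In the second set the capitals mark each CG dinucleotide. Hoxa10 (chr6:52234910-52235189, minus strand), Lhx2 (chr2:38339031-38339310, plus) and Kcnd3 (chr3:105458532-105458811, plus) had residual domains, Hist1h2aa (chr13:23934212-23934491, plus) and Slc32a1 (chr2:158610517-158610796, plus) had fast ones, and Zfp629 (chr7:127615768-127616047, minus) and Wnt7b (chr15:85580700-85580979, minus) had slow ones. All 7 starts lay inside their domain.
Hoxa10: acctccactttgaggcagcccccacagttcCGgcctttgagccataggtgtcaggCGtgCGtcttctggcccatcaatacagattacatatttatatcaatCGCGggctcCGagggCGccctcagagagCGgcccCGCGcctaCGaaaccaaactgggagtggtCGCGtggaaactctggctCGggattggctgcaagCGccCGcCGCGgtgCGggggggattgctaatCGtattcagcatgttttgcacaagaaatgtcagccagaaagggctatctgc
Lhx2: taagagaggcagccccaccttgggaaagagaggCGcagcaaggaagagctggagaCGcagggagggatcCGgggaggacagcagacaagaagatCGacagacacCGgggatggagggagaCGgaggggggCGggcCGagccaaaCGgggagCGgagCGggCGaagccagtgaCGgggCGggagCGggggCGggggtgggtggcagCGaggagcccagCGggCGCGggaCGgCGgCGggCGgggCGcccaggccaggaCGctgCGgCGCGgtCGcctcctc
Kcnd3: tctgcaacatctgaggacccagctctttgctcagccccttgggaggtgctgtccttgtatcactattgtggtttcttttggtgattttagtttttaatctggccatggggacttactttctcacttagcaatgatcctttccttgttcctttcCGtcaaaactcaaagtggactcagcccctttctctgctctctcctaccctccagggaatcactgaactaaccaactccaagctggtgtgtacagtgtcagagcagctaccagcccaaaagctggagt
Hist1h2aa: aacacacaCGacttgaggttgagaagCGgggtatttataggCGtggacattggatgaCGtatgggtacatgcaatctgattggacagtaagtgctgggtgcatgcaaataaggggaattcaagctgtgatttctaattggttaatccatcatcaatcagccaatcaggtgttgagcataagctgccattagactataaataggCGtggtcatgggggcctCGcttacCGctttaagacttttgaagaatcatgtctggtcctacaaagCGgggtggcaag
Slc32a1: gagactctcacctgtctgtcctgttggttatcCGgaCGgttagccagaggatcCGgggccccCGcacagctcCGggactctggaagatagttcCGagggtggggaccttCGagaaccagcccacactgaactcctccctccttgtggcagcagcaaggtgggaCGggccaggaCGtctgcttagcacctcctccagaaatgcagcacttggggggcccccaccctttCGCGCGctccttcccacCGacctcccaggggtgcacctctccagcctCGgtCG
Zfp629: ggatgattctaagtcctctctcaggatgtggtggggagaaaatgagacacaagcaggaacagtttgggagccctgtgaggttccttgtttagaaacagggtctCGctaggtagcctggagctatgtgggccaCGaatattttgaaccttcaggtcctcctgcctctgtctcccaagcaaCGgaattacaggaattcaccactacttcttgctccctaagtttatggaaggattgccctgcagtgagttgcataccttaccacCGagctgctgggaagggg
Wnt7b: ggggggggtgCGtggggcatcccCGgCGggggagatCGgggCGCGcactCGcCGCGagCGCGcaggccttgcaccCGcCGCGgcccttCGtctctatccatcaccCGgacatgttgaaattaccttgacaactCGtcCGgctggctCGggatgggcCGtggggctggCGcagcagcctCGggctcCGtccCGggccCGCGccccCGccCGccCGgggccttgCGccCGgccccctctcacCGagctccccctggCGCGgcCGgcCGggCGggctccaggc

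These promoters did not share a base composition within a class. Among the residual ones, Hoxa10 held 20 CG and Lhx2 30, but Kcnd3 only 1. Among the slow ones, Wnt7b held 37 and Zfp629 held 4. Hist1h2aa held 8 and Slc32a1 held 15.

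Residual domains made up 14.7% of promoter domains (142 of 968, interval 12.6 to 17%), against 2.25% of all domains on the same chromosomes. Intermediate domains were the most common class at promoters too, with 607 or 62.7% (59.6 to 65.7%), but this lay below their 76.7% of all domains. Slow domains, with 180 or 18.6% (16.3 to 21.2%), lay near their 18.1% of all domains, and fast domains numbered 39, or 4.03% (2.96 to 5.46%) against 2.93%. Measured against the domains away from promoters, the residual share was 12.6 ± 7.03 percentage points higher (mean and SD over 17 chromosomes) and was higher on 17 of 17, while the intermediate share differed by -14.5 ± 7.33 points and was lower on 17 of 17. The slow share differed by 0.294 ± 5.58 points, higher on 9 and lower on 8, and the fast share by 1.56 ± 3.14 points, higher on 11 and lower on 6, so both differences were smaller than their spread over chromosomes. The slow share moved with the way domains were counted. It was 7.0% of the 300 domains with their midpoint in a window. Of the 263 with at least 50% of their length in windows it was 7.60%, and fast domains held 6.46%. The 50% rule leaves out wide domains, and no matching share of other domains was computed for either rule. By covered length the slow share was 31.3%, near the 29.6% that slow domains hold of the length of all domains. On chromosomes 8, 11 and X, not counted here, the residual class was more common, at promoters and elsewhere: it held 57 of 108 promoter domains on chromosome 8 (52.8%, against 16% of the other domains there), 111 of 181 on chromosome 11 (61.3% against 18.7%) and 18 of 42 on X (42.9% against 5.48%). On Y, with 2 promoter domains of which 1 was residual, 1.03% of the other domains were. With all 4 included, the residual share of promoter domains was 25.3% of 1301.

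**Figure D1:**
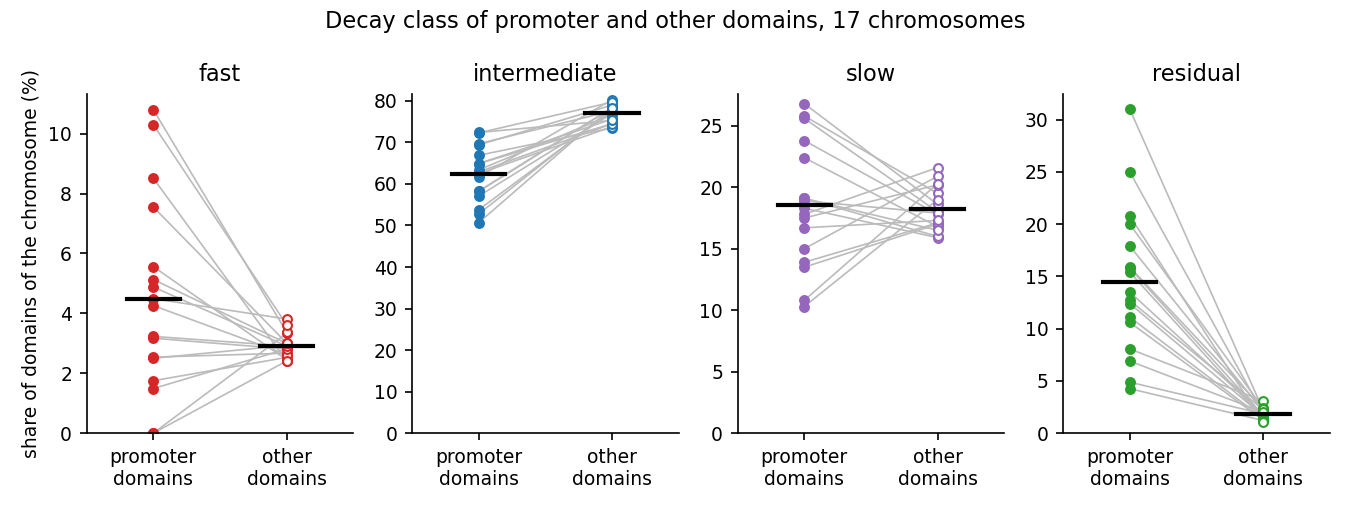
Share of each decay class (percent of the domains of a chromosome) among promoter domains (filled points) and among the other domains (open points), with 1 pair of points joined by a grey line per chromosome and black bars for the mean over 17 chromosomes. The residual share sits between 4.26 and 31% at promoters and between 1.03 and 3.08% elsewhere.

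Chromosome 1 had the highest residual share, with 22 of 71 promoter domains or 31%. Of those 22, 14 lay in 3 groups of residual promoter domains within 1 Mb of one another. Chromosome 18 followed with 9 of 36, or 25.0%, 6 of them in the clustered protocadherin genes. Neither chromosome had a fast promoter domain.

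Domains on exons of coding genes but away from promoters stood between promoters and the rest. Of 1633 such domains 8.21% were residual (6.97 to 9.64%), compared with 2.31% of 5537 domains that touched a coding gene body without an exon and 1.41% of 26251 outside coding genes.

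The residual share was highest near a start and lower with distance. It was 13.7% (10.9 to 17%) of the 497 domains with a start inside them, 15.7% of the 471 within 1 kb and 13% (10.4 to 16.3%) of the 506 between 1 and 2 kb. It was 6.25% between 2 and 5 kb, 3.54% between 5 and 10 kb, 2.21% between 10 and 50 kb and 0.982% of the 20155 domains beyond 50 kb. Intermediate domains ran the other way, from 63.6% with a start inside to 78.4% beyond 50 kb. Slow domains stayed between 17.7 and 18.8% in all 7 bins. In the narrow bands on each side of the limit, 22 of 125 domains between 801 and 1000 bp were residual (17.6%) and 8 of 109 in the next 200 bp outside it (7.34%). The second share rests on 8 domains and lies below the 13% of the whole bin between 1 and 2 kb, so it shows no lasting drop at the limit.

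**Figure D2:**
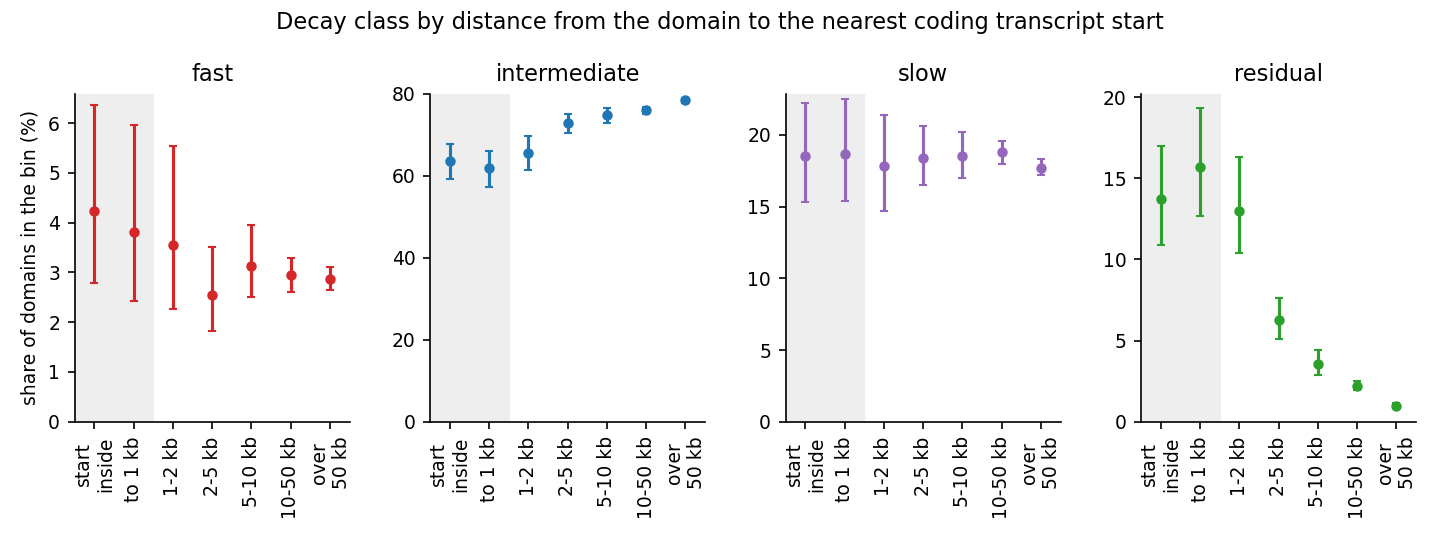
Share of each decay class (percent of domains in the bin) by distance from the edge of the domain to the nearest protein-coding transcript start, with Wilson 95% intervals as bars and the promoter domains on grey. The residual share is 13.7, 15.7 and 13% in the first 3 bins and 0.982% in the last, while the slow share stays between 17.7 and 18.8%.

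Promoter domains were short in 3 of the 4 classes. The median width was 2.70 kb for fast, 3.00 kb for intermediate and 3.00 kb for residual promoter domains, near the 2.70, 2.70 and 2.40 kb of the same classes elsewhere. Slow promoter domains were wider, at a median of 7.20 kb (quartiles 3.22 and 11.2 kb), against 4.80 kb for slow domains elsewhere. A rule of 1 bp of overlap picks wide domains more often than short ones, and its part in these widths was not tested. Of the 74 promoter domains over 12 kb, 37 were slow (50.0%), 23 intermediate (31.1%), 13 residual (17.6%) and 1 fast. Of the 1126 other domains over 12 kb, 56.7% were slow, 41.3% intermediate and 2.04% residual. At this width the slow share was thus no higher at promoters than elsewhere, while the residual share was.

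Repeats were less frequent in promoter domains than in others, in every class. The median soft-masked share, which counts annotated repeats, was 10.2% in residual promoter domains, 15.1% in fast, 24.7% in intermediate and 53.7% in slow ones, compared with 18.8, 56.1, 71.4 and 76.1% in the same classes elsewhere. The median share of 31-mers found once in the genome was 100% in residual, 95.8% in fast, 88.9% in intermediate and 53.9% in slow promoter domains. Reads in the repeated parts may be placed on several copies, and the part of this in the class was not tested. In 4 of 5 bands of repeat content the residual share was above that of other domains: with up to 10% of bases masked it was 33.8% of 201 promoter domains against 12.8% of 1348 others, from 10 to 30% it was 16.3% against 5.40%, from 30 to 60% it was 7.24% against 1.54%, and from 60 to 90% it was 1.19% of 168 (0.327 to 4.24%) against 0.519%, which that interval holds. No promoter domain of the 35 over 90% masked was residual, where the interval reaches 9.89% and 0.471% of others were. The slow class ran the other way. With up to 10% masked bases it held 7.46% of promoter domains (4.57 to 11.9%), below the 13.4% of others. From 10 to 30% it was 12.0% (8.93 to 15.8%) against 8.95%, and from 30 to 60% it was 22.2% (17.2 to 28.1%) against 12.2%. From 60 to 90% it was 39.3% (32.2 to 46.8%) against 25.5%. Over 90% masked it was 25.7% (9 of 35, 14.2 to 42.1%) against 16.9%, which that interval holds.

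Of 18047 protein-coding genes, 981 had a promoter domain, or 5.44%. Each gene was given the class with most bases in the window of its most covered start, which put 45 genes in fast, 613 in intermediate, 182 in slow and 141 in residual. The start itself lay inside a domain in 502 of the 981. This share was alike in all classes: 51.1% of fast, 51.7% of intermediate, 52.2% of slow and 47.5% of residual genes. The whole window was covered in 236 genes, and the median cover ranged from 43.6% (residual) to 52.0% (intermediate). A domain held the whole gene in 55 cases.

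Where the domain sat along the gene differed by class. At 1 kb before the start, 75.3% of slow and 68.0% of intermediate genes were inside a domain, against 54.6% of residual and 53.3% of fast genes. At 1 kb after the start residual and fast genes stood above the other classes, with 68.1% of residual, 62.2% of fast, 52.7% of slow and 51.5% of intermediate genes. The midpoint of the domain lay downstream of the start in 55.3% of residual genes and in 37.4% of slow genes. Slow genes were also inside a domain, of any class, most often farther out on both sides. At 5 kb before the start this held for 40.1% of slow, 17.3% of intermediate, 19.9% of residual and 6.67% of fast genes. At 5 kb after it the shares were 29.7, 10.8, 20.6 and 8.89% in the same order. A separate neighbouring domain counts here as well. The choice of window and of the most covered start gives every class its maximum within about 1 kb of the start. Over all 18047 genes, where no such choice bears on most genes, 5.37% were inside a domain 5 kb before the start, 2.78% at the start and 2.83% 5 kb after it.

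**Figure D3:**
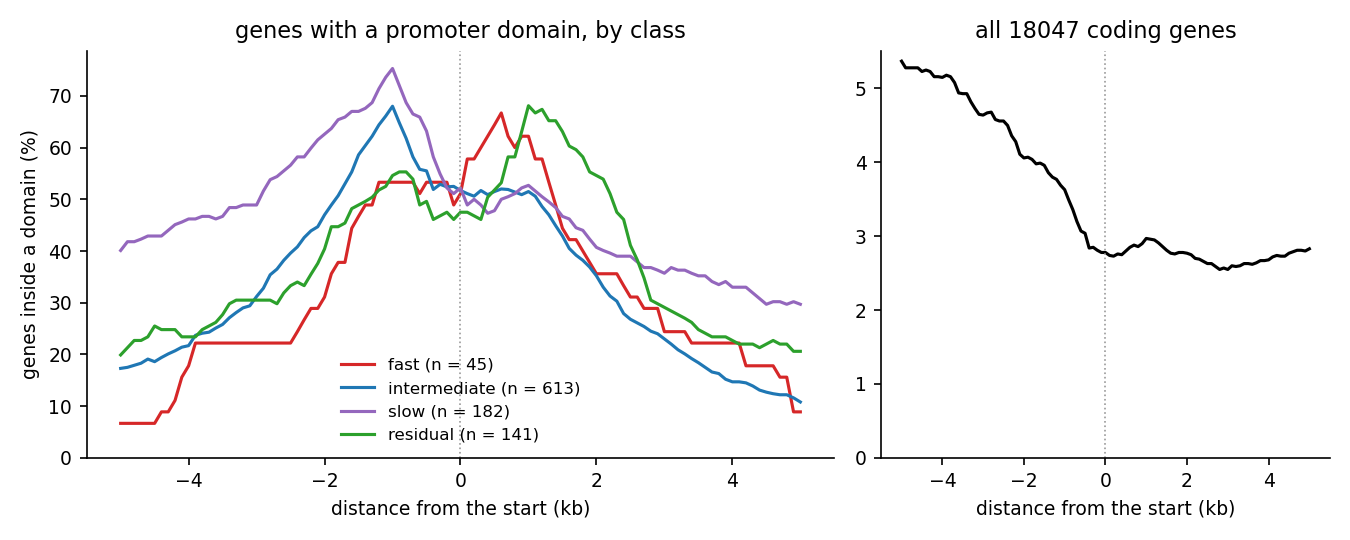
Share of genes (percent) inside any domain at each distance from the transcript start (kb, negative before the start along the gene), for genes with a promoter domain by class (left) and for all 18047 coding genes (right). Slow genes peak before the start at 75.3%, residual genes after it at 68.1%, and all genes drop from 5.37% to 2.78% on the way to the start.

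Genes with a promoter domain had CpG-rich promoters less often than other genes. CpG-rich means a ratio of observed to expected CpG of at least 0.6 and GC of at least 50% over the 2 kb window. Genes with a promoter domain were read at their most covered start and the others at their outermost 5′ start. This held for 20.5% of the 981 genes (18.1 to 23.1%) and for 30.9% of the 17066 genes without a promoter domain. The intermediate class was lowest, with 105 of 613 or 17.1% (14.4 to 20.3%), followed by slow with 22.5% (17.1 to 29.1%) and fast with 11 of 45 or 24.4% (14.2 to 38.7%). Residual genes, with 44 of 141 or 31.2% (24.1 to 39.3%), were close to genes without a domain. Median CpG ratios were 0.309 for intermediate, 0.336 for slow, 0.474 for residual, 0.511 for fast and 0.488 for genes without a domain. Read the other way, 3.67% of 5482 CpG-rich genes had a promoter domain against 6.21% of 12565 others, and of those domains 21.9% (16.7 to 28.1%) were residual at CpG-rich promoters and 12.4% (10.3 to 14.9%) at others.

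**Figure D4:**
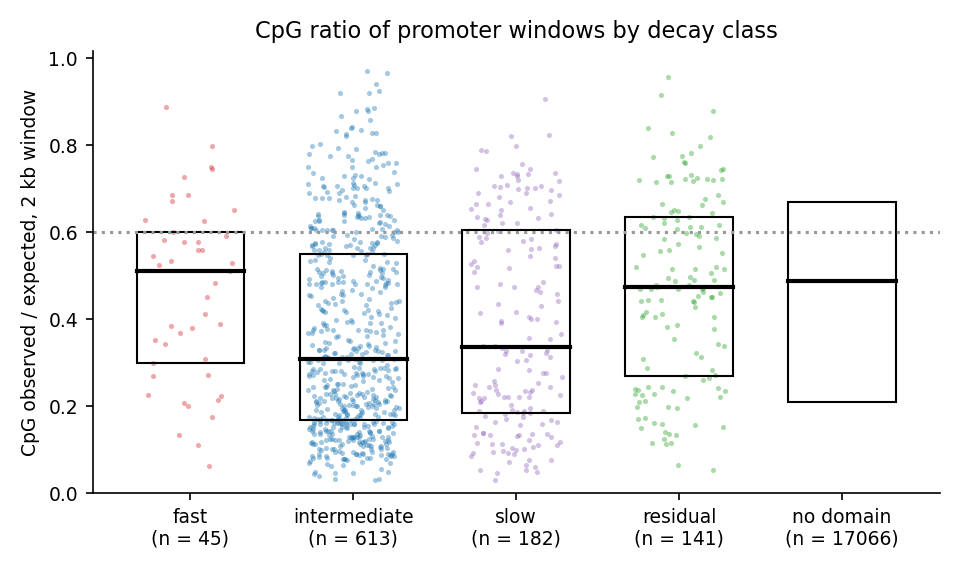
Observed over expected CpG ratio of the 2 kb promoter window by decay class, with 1 point per gene, boxes for the quartiles, thick lines for the median, and a dotted line at 0.6; genes with no promoter domain are shown as a box alone. The median is 0.309 for intermediate and 0.474 for residual genes, beside 0.488 for genes without a domain.

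At CpG-rich promoters the start lay inside the domain less often than at others, and in windows that could be split the covered part was mostly the poorer in CpG. The start was inside the domain in 35.3% of 201 CpG-rich genes and in 55.3% of 780 others. Where a window was split into a covered and an uncovered part of at least 200 bases each, the covered part had the lower CpG ratio in 92 of 118 CpG-rich genes, with medians of 0.444 and 0.761. Intermediate genes showed this in 56 of 69, slow genes in 19 of 21 and residual genes in 16 of 24. At the other promoters the classes differed: the covered part was lower in 41 of 55 residual genes (medians 0.219 and 0.497) and in 152 of 307 intermediate genes (0.217 and 0.199). Of the 4 CpG-rich fast genes that could be split, 1 had the lower ratio in the covered part. The split leaves out fully covered windows and those barely touched. The median cover at CpG-rich promoters was 31.2%, and a domain that reaches only the edge of a window leaves its middle uncovered. How far this rule sets these counts was not tested.

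Germline genes had the highest share with a promoter domain among 24 gene lists, with an interval that overlapped that of the clustered protocadherins. Of 58 genes for germ cell development, meiosis and the piRNA pathway, 23 had a promoter domain, or 39.7% (28.1 to 52.5%), beside 5.44% of all genes. Domains were intermediate at 20 of the 23, slow at 1 and residual at 2, where 62.5% of all genes with a promoter domain were intermediate. The start lay inside the domain in 19 of the 20 intermediate genes, and in 11 the whole window was covered. The domains were 0.900 to 6.60 kb wide with a median of 2.70 kb, lay on 12 chromosomes, and 13 of 23 had 100% unique 31-mers. The list was written with knowledge of such genes from the field and is no independent evidence of their marking.

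The fully covered germline genes included Syce1, a part of the synaptonemal complex that holds paired chromosomes together, in a domain of 6.60 kb, Brdt, a testis bromodomain protein, in one of 6.0 kb, Mei1, needed for meiotic recombination, in one of 5.10 kb, and Mov10l1, a helicase of piRNA production, in one of 4.20 kb. Ddx4, the germ cell helicase also called Vasa, was fully covered by 3.6 kb and Dazl, an RNA-binding protein of germ cells, over 71.8% of its window by 1.8 kb. Both were named after their values were seen. Tdrd9, a piRNA pathway protein, had the slow domain, 1.50 kb wide over 72.1% of the window. The residual domains only touched the windows of Tdrd5 (17.6%) and Tdrd6 (1.75%), whose starts lay outside them.

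The letters CACGTG were found, on either strand, in 11 of these 23 promoters of 300 bases, or 47.8% (29.2 to 67%). The share was 7.56% of all 18047 promoters and 5 of 35, or 14.3% (6.26 to 29.4%), of the germline genes without a domain. These letters hold a CG, and the 2 germline sets differed in CpG content. Of the 23, 9 were CpG-rich, with a median ratio of 0.563, and of the 35 it was 5, with 0.477. The part of CpG content in the E-box shares was not tested. The first base of the first match lay between positions -221 (Mei1) and -36 (Tex12), counted from the start with -1 the base before it. It was -43 in Brdt and -161 in Mov10l1, as in the sequences above. Fkbp6 held 2 matches at -101 and -37, and Tdrd9 held 2 at -165 and -95. TCCCGC, the letters of an E2F-type site, occurred in 10 of the 23 and in 12 of the 35, where 24.5% of all promoters held it. Over all genes with a promoter domain, the germline genes included, the E-box was in 7.03%, with 7.67% of intermediate and 5.67% of residual genes. A match is a run of letters and not a binding site.

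Imprinted genes, expressed from 1 parental copy, had a promoter domain in 12 of 69 cases, or 17.4% (10.2 to 28%), with 7 intermediate, 4 slow and 1 residual. Cdkn1c, a cell cycle inhibitor, was fully covered by an intermediate domain of 9.90 kb, and Gnas, a G protein subunit with several imprinted starts, by one of 6.60 kb. On chromosome 7, Igf2, a fetal growth factor, and Kcnq1, a potassium channel, were fully covered by slow domains of 6.90 and 7.20 kb, so that Cdkn1c and Kcnq1, which are neighbours, were in different classes. Igf2r, the receptor that clears IGF2, was covered over 28.2% by a slow domain of 1.50 kb. Dio3, an enzyme that inactivates thyroid hormone, was in a residual domain of 9.6 kb.

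Residual domains were found at ion channel and developmental genes more often than at most lists. Of 111 potassium, sodium and calcium channel genes 17 had a promoter domain, or 15.3% (9.79 to 23.2%), and 8 of the 17 were residual, or 47.1% (26.2 to 69.0%), where 14.4% of all genes with a promoter domain were. Kcnd3, a transient potassium channel of heart and brain, was fully covered by 6.90 kb, and Kcnc1, a fast channel of firing neurons, over 77.4% by 3.3 kb. Kcna2 had 34.1% and Cacna1e, a calcium channel, 34.0% of the window covered by 2.10 and 1.50 kb. Kcna3, Kcns2 and Kcnf1, also residual and named after their values were seen, had between 0.650 and 17.4% covered. Intermediate domains fully covered Kcna6, Kcng2 and Cacna1c. Kcna1 had a fast domain of 2.10 kb that reached 5 bases of its window.

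Hox, Pax, Gata, Sox, Tbx and Fox genes and their relatives, transcription factors that lay out the body, had a domain in 14 of 133 cases, or 10.5% (6.37 to 16.9%). Of the 14, 6 were intermediate, 5 residual (35.7%, 16.3 to 61.2%), 2 slow and 1 fast. Hoxa10 and Lhx2 were fully covered by residual domains of 4.50 and 4.20 kb with 100% unique 31-mers, and Hoxd3 over 91.3% by 3.00 kb. Pax6, the eye and brain regulator, had 25.0% of its window covered by 5.10 kb with the start outside. In the same Hoxd cluster, Hoxd4 and Hoxd12 were fully covered by intermediate domains of 5.40 and 4.20 kb and Hoxd1 over 34.0% by a slow one of 7.5 kb, so 3 classes met in 1 cluster. Six3, a forebrain and eye regulator, had the fast domain, over 24.6% of its window. Of the 57 genes for WNT, FGF, BMP and hedgehog ligands 6 had a domain, or 10.5% (4.91 to 21.1%, which holds the 5.44% of all genes), with 3 intermediate, 2 slow (Wnt7b, fully covered by 3.3 kb, and Fgf12) and 1 residual (Fgf3).

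Clustered protocadherin genes, whose alternative starts give neurons a surface identity, had a domain in 19 of 57 cases, or 33.3% (22.5 to 46.3%), and 9 were intermediate, 6 residual and 4 slow. Only 3 starts lay inside the domain, and the median cover was 16.6% of the window. Pcdhga10 and Pcdhga11 were fully covered by intermediate domains of 7.5 and 12.6 kb, and Pcdha8 by a slow one of 20.1 kb. The 4 most covered residual genes, Pcdhga7, Pcdhga5, Pcdhga9 and Pcdha9, had 9.00 to 20.9% covered. With 5 kb either side 34 of the 57 genes had a domain, or 59.6%, more than the 44.8% of germline genes.

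Zinc finger and receptor families had no residual promoter domain. The upper bounds were 11.7% for zinc finger, 7.56% for olfactory and 14.3% for vomeronasal receptor genes with a domain. Of all genes with a promoter domain 14.4% were residual. Of 362 zinc finger genes, many of which encode KRAB repressors that recruit the mark to repeats, 29 had a domain (8.01%, 5.64 to 11.3%), with 18 intermediate, 10 slow and 1 fast, and the median domain was 8.10 kb wide with 45.2% unique 31-mers. Zfp629, Zfp936 and Zfp988 were fully covered by slow domains of 21.6 kb each, Zfp850 by an intermediate one of 13.2 kb, and Zfp873 had the fast one of 11.1 kb over 65.8% of the window. Olfactory receptor genes stood at 47 of 1040 (4.52%, 3.42 to 5.96%), near the 5.44% of all genes, with 35 intermediate, 9 slow and 3 fast. Vomeronasal receptor genes stood at 23 of 329 (6.99%, 4.70 to 10.3%, which holds the 5.44% of all genes), with 16 intermediate and 7 slow. Their promoters were poor in CpG, with a median ratio of 0.133 in both families. Cytochrome P450 and other detoxifying enzyme genes had 17 of 162 (10.5%). Of these 15 were intermediate (88.2%, 65.7 to 96.7%), where 62.5% of all genes with a promoter domain were. Among the 15 were Cyp2c69 under 24.9 kb, Cyp2c40 under 18.3 kb and Cyp2c67 under 15.3 kb. Ugt1a1, the enzyme that conjugates bilirubin, had the residual one, over 92.9% of its window.

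Genes of the 2-cell embryo, a stage that stem cells can briefly revisit, had a domain in 5 of 34 cases, or 14.7% (6.45 to 30.1%), an interval that lies above the 5.44% of all genes but rests on 5 genes. Obox2, Obox3 and Tcstv3 were slow and Obox1 and Sp110 residual, classes that held 18.6 and 14.4% of all genes with a promoter domain, and the median of unique 31-mers in these domains was 10.4%, with 65.0% at Tcstv3. No ribosomal protein gene of 69 (upper bound 5.27%) and no gene of 32 in the Pramel, Oog and Nlrp list (upper bound 10.7%) had a promoter domain. In the other lists 4 of 60 keratin, 2 of 18 defensin, 4 of 58 serpin, 4 of 71 interferon, 5 of 52 lectin, 2 of 39 collagen and 22 of 303 solute carrier genes did, and the intervals of all of these held the 5.44% of all genes.

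**Figure D5:**
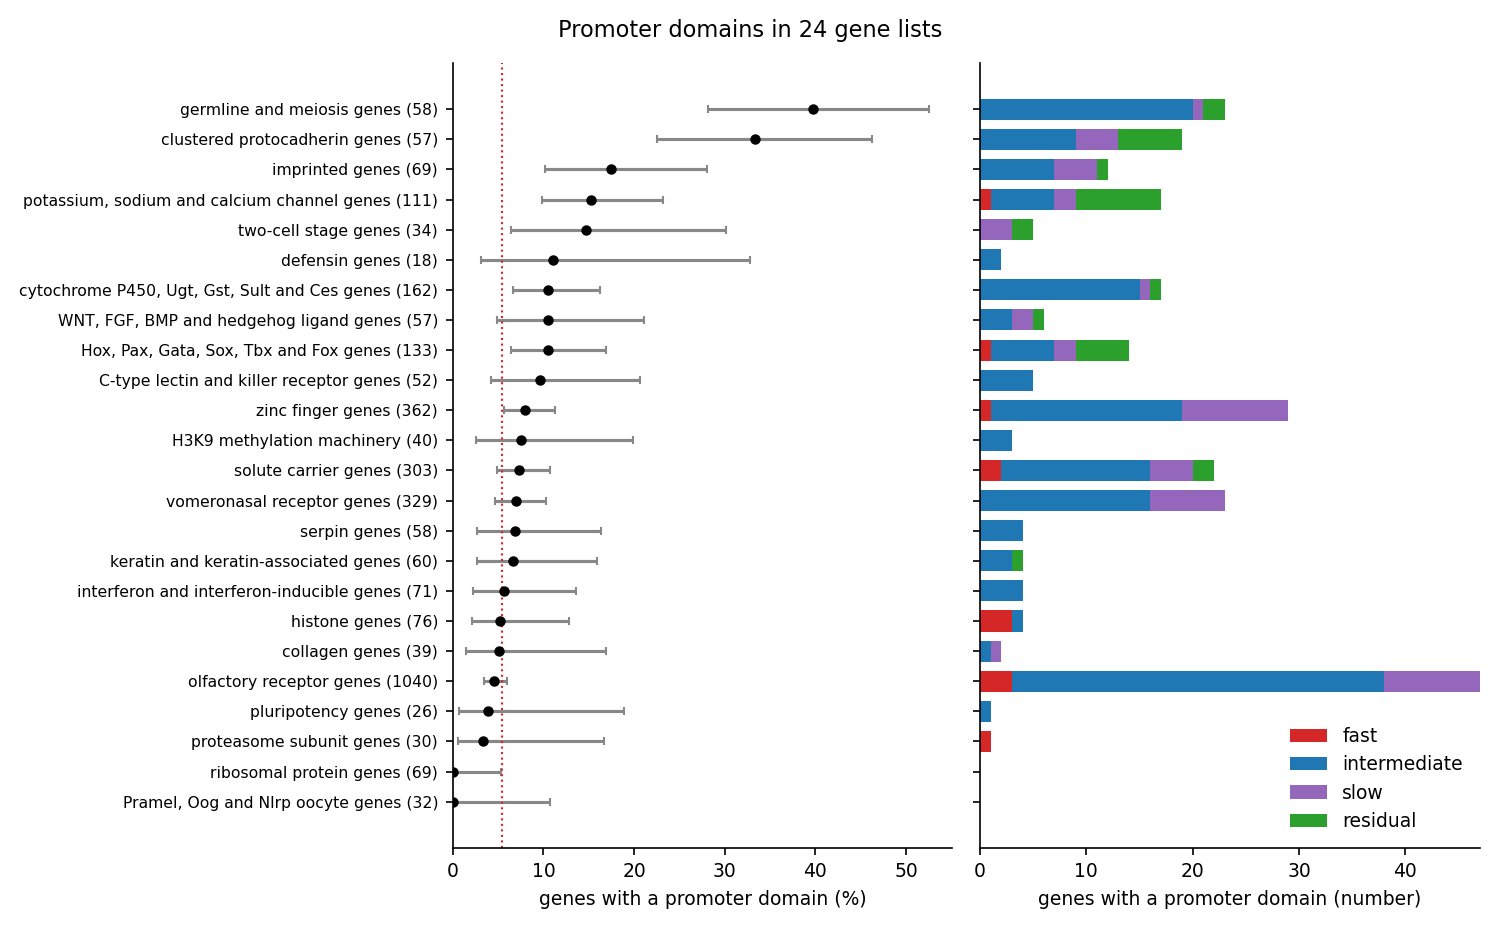
Gene lists with the number of their genes on the 17 chromosomes in brackets: share of genes with a promoter domain (left, percent, with Wilson 95% intervals and a dotted line at the 5.44% of all genes) and number of those genes in each decay class (right). Germline genes stand highest at 39.7%, with 20 of 23 intermediate, and ion channel genes hold 8 residual among 17.

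Of 40 genes for writers, readers, erasers and partners of H3K9 methylation, 3 had a promoter domain (7.5%, 2.58 to 19.9%), near the 5.44% of all genes, all 3 intermediate and none with the start inside. Atf7ip, the partner that stabilises SETDB1, had 24.9% of its window covered, Dnmt3a, a DNA methyltransferase, 13.7% and Zfp462, a zinc finger protein that works with H3K9 methyltransferases, 1.75%. Setdb1 and Suv39h2 had none. Of 26 pluripotency genes Esrrb alone had one, an intermediate domain of 1.2 kb over 59.2% of the window of the start that was most covered.

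The 45 fast genes shared 39 domains, and no fast promoter domain lay within 1 Mb of another. The widest, 13.8 kb on chromosome 14, held the start of Chat, which makes acetylcholine, and reached 32.5% of the window of Slc18a3, which loads it into vesicles. Slc32a1, the vesicular transporter for GABA and glycine, was fully covered by 6.60 kb, Gabbr2, a GABA receptor subunit, by 7.80 kb and Dchs2, a large cadherin, by 7.20 kb. Of 76 histone genes 4 had a domain, or 5.26% beside the 5.44% of all genes, and 3 of these were fast, where 4.59% of all genes with a promoter domain were: Hist1h2aa and Hist1h2ba, a pair of testis histones read in opposite directions, shared a domain of 3.00 kb that covered both windows, and H1fnt, a linker histone of spermatids, was covered by 5.70 kb. The fourth, Hist1h4m, was intermediate. Psmb8, a subunit of the immunoproteasome, and Tap2, a peptide transporter named after its values were seen, shared a fast domain of 5.70 kb in the major histocompatibility region.

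H2-Ob, a class II chain that tunes antigen loading, was inside a slow domain of 34.2 kb, and Il3ra, an interleukin receptor chain, shared one of 30.3 kb with Olfr31. Zfp986 had one of 26.4 kb with 4.58% unique 31-mers, and Col6a4, a collagen chain, one of 24.0 kb with 91.7%. Among intermediate domains Fpr3, a formyl peptide receptor, had one of 27.0 kb, and Scp2, a sterol carrier, was under one of 18.6 kb.

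Residual promoter domains lay close to one another in part. Of the 142, 57 were within 1 Mb of another residual promoter domain, or 40.1%, against 35.6% of slow and 59.1% of the far more numerous intermediate ones. In 7 groups 3 or more of them were joined in this way, 31 in all, and without those 31 the residual share was 11.8% of 937. Domains of other classes could lie between them. A group on chromosome 4 held 3 residual among 36 domains, and that in the protocadherins on chromosome 18 held 6 among 34. A group on chromosome 1 (85085701 to 85614900) held 7, at Sp110, Sp140 and unnamed relatives, with 5.71 to 16.3% unique 31-mers, and 20 of its 28 domains were residual. A second, on the same chromosome (88211101 to 88310700), held 4 residual domains at Ugt1a1, Mroh2a, Hjurp and Trpm8, and 6 of its 7 domains were residual. Here sequence was nearly unique: the domain of 35.4 kb at Mroh2a, the widest residual one, had 98.9% unique 31-mers, and that of 19 kb at Trpm8, a cold-sensing channel, had 93.2%. Other groups lay on chromosome 12 (111402001 to 111449700) at Lbhd2, Exoc3l4 and Tnfaip2, with 94.3 to 100% unique 31-mers, and on chromosome 17 (34956901 to 35470500) at Hspa1b, Tnf, H2-Q6, H2-Q7 and H2-Q10, with 30.2 to 100%. Thbs2, a matrix protein gene, had 16.7% of its window covered by a residual domain of 23.4 kb, and Slc9a2, a sodium and proton exchanger, was fully covered by 16.5 kb. These groups were described after their values were seen.

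The nearest other domain was residual for 26.8% of residual promoter domains (38 of 142), near the 25.0% for residual domains elsewhere. For intermediate promoter domains it was residual in 3.79% and elsewhere in 1.42%. Of 20 genes with 2 or 3 promoter domains, 13 had domains of 1 class. The mixed ones joined residual with slow at Hjurp, Tnfaip2 and Obox1, residual with intermediate at Nos1 and Slc7a10, and intermediate with slow at Zfp872 and Zfp934, and no gene had a fast domain together with a residual or a slow one. Of the 968 domains 31 served 2 or more genes.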

How the data were processed

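All values come from 1 table deposited by the authors, a list of H3K9me3 domains on mm10 that holds each domain's coordinates and its class as a word, with no signal; its display columns were not used. It holds 0 columns of values per sample. The submitters' processing notes list the tools bedtools, deepTools, SAMtools 1.1 and Bowtie2 2.3.4.1 and the builds dm6, mm9, mm10 and GRCm38. The domain caller, the limits between decay classes, the joining of replicates and any scaling to Drosophila chromatin were not given in the sources used here. All widths are multiples of 300 bp, and a domain's edge is no sharper than that. Reads in repeats may be placed on several copies.

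Here, positions were made 1-based and overlapped with GENCODE vM21 transcripts whose gene and transcript are both protein-coding (1 bp or more, 1 kb either side of each start). GC, CpG ratio, soft-masked share and the share of 31-mers found once in GRCm38.p6 (sampled every 100 bp, both strands) were computed for each domain and, for genes, over the window and the 300 bases from 250 before the start to 50 from it on. Motifs were searched on both strands. The functions were tested on simulated data with known answers (Python 3, numpy, pandas, scipy, numba). Shares have Wilson 95% intervals, which cover counting error only. There are no replicates in the table, and no test was made.

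The promoter rule, the 24 gene lists and the tables shown were chosen with earlier results of these data known. Named genes are, per list and class, the 4 with most bases of the window covered, per class the 5 at the widest domains and the 5 (no Gm or Rik symbols) with most of the window covered, the H3K9 methylation genes, and genes with fast and residual or fast and slow domains. Others are said to be named after their values were seen. Chromosomes 8 and 11, X and Y were left out of the main values. Alternatives covered the window, the overlap rule, transcript choice, width, repeats, counting unit and chromosomes.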

Additional observations from a re-analysis of the deposited data

How the results depend on the processing

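No paired analysis was possible because the table has no column of samples. The class shares of promoter domains were recomputed under 32 alternatives each. Of these, 30 fast, 27 intermediate, 27 slow and 28 residual values stayed within the interval of the value reported. Many alternatives kept most of the same domains, as did each that left out 1 chromosome and that of at least 900 bp, with 967 domains. Such values could hardly leave the interval, so the counts say little of how stable a share is. Leaving out each chromosome in turn gave 3.76 to 4.35% fast, 62.0 to 63.7% intermediate, 18 to 19% slow (to the nearest percent) and 13.4 to 15.2% residual, all within the interval of the value reported. With 5 kb either side, intermediate was 68.1% and residual 10.3%. With the midpoint of the domain inside the window, intermediate was 74.3% and slow 7.0% of 300 domains. With at least 50% of the domain inside windows, which leaves out wide domains, fast was 6.46%, intermediate 72.2% and slow 7.60% of 263. Domains with at least 80% unique 31-mers were 10.8% slow and 20.3% residual, where other domains so filtered were 7.93 and 4.44%. Domains with under 50% masked bases were 12.5% slow and 19.4% residual, where others were 9.93 and 4.76%. By covered length, fast was 2.77%, intermediate 52.1% and slow 31.3%, where the length of all domains was 2.26, 65.9 and 29.6%. On chromosomes 1 to 19, X and Y together, intermediate was 51.4% and residual 25.3% of 1301 promoter domains, and the residual share of promoter domains was also above that of other domains on chromosomes 8, 11 and X, each taken alone. With the CpG ratio taken in the 300-base promoter, the CpG-rich share was 25.6% of intermediate, 29.7% of slow, 41.8% of residual and 43.1% of genes without a domain, so that residual genes stood just below genes without a domain instead of just above them. The cause of these shifts was not tested. For gene lists, the number of germline genes with a domain went from 23 to 20 with the start inside the domain and to 26 with 5 kb either side, and for all genes from 981 to 502 and 2814. The residual share stayed above the 2.25% of all domains in every alternative run. The depth behind a class is unknown.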
